A study of Mus musculus with 22 samples.

Results

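Prg2, Prg3, Epx, Ear2, Il5ra and Ccr3 are genes of the eosinophil, and they make up 6 of the 37,991 genes with counts in RNA-seq of E14.5 liver. The 6 genes were taken as a named list for which both RNA counts and promoter methylation were to be read, and which measured values led to the list is not stated. It was treated as chosen by the RNA-seq difference between the genotypes in E14.5 liver, so that difference is described below and supports nothing by itself. DNA methylation was tested, but whether it played a part in the choice is not known. The promoters of all 6 genes were among the 20,677 protein-coding promoters tested for methylation, and 5 of the 6 genes passed the filter on low RNA counts.

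The study asked what the absence of Rlf, a zinc finger protein, does to DNA methylation and transcription in the mouse embryo. Whole genome bisulphite sequencing was carried out on whole embryos at E10.5 and on livers at E14.5 and E18.5, with 2 wild-type (Rlf+/+) and 2 homozygous (RlfMommeD28/MommeD28) libraries at each stage, and RNA-seq on 3 E14.5 livers of each genotype. Every animal was of the FVB/NJ Line3 background and, in both genotypes, homozygous for a multi-copy GFP reporter that carries a human alpha-globin promoter with HS-40 as its enhancer. MommeD28 is an Rlf allele from ENU (N-ethyl-N-nitrosourea) mutagenesis, which the submitters call null, and embryos came from matings of heterozygotes. The E10.5 embryos were all male and the E18.5 livers all female, while replicate 1 at E14.5 was male and replicate 2 female in each genotype, so sex, tissue and stage change together between stages. In RNA-seq, replicates 1 and 2 of each genotype were male and replicate 3 female. Rlf mRNA itself lay between 68.9 and 72.3 CPM (counts of a gene scaled to a common library size) in wild-type livers and between 67.6 and 79.8 CPM in homozygous livers, so the mRNA level does not check the genotype labels. H3K4me1 ChIP-seq was not analysed here.

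Eosinophils are granulocytes that differentiate from myeloid progenitors in blood-forming tissue, which in the mid-gestation embryo is chiefly the liver. Their granules hold cationic proteins, among them major basic protein (Prg2), its homologue (Prg3), eosinophil peroxidase (Epx) and ribonucleases of the eosinophil-associated family (Ear2). Interleukin 5, acting through the receptor subunit encoded by Il5ra, drives their production and survival, and the chemokine receptor Ccr3 guides them towards eotaxins. Cytosines of CpG dinucleotides are mostly methylated in mammalian genomes, and regulatory DNA that a cell uses is often less methylated than its surroundings.

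Promoter stretches of Il5ra, Prg3 and Epx are shown because, of the stretches found for these genes, they are the ones that hold CpGs in the reference letters. Each is the 250 bases before the RefSeq start, read 5' to 3' on the strand of the gene from the RefSeq promoter table (GRCm38.p6), with CpGs in capitals. On that build Il5ra is chr6:106749038-106749287 on the minus strand, Prg3 is chr2:84987965-84988214 on the plus strand and Epx is chr11:87875537-87875786 on the minus strand.
Il5ra: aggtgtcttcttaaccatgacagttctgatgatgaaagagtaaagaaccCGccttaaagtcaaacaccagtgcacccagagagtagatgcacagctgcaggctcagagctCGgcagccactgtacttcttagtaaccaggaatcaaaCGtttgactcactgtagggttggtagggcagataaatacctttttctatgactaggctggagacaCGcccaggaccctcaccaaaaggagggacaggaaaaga
Prg3: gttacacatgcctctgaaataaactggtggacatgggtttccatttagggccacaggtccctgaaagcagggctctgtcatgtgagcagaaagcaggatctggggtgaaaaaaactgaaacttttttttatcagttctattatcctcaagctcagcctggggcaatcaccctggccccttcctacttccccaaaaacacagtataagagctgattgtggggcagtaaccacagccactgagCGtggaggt
Epx: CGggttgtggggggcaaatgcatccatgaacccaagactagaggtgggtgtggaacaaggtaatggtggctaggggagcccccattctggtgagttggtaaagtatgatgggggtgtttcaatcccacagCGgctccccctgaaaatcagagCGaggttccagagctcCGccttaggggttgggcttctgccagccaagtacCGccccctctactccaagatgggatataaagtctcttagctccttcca
The same table held Ear2 and Ccr3, whose 250 reference bases contain no CpG, and it had no entry for Prg2. The study put known FVB substitutions into mm9 before mapping, so CpGs of these mice can differ from the letters. In the Ccr3 stretch 1 CpG position had reads in every library. It was methylated in 73.7% of 19 pooled reads at E10.5, 43.9% of 66 at E14.5 and 81.3% of 16 at E18.5. The 4 CpGs of the Il5ra stretch were methylated at 78.0% ± 8.17 in E10.5 embryos, 14.48% ± 2.99 in E14.5 livers and 31.5% ± 6.17 in E18.5 livers (SD, n = 4 libraries, both genotypes together). The single CpG of the Prg3 stretch, 9 bases before the RefSeq start and downstream of the start in the other annotation used here, was methylated in 71.4% of 14 reads pooled over the E10.5 embryos (95% Wilson interval 45.4% to 88.3%), 16.3% of 129 reads in E14.5 livers (10.9% to 23.6%) and 23.5% of 51 reads in E18.5 livers (14.005% to 36.8%). These intervals pool reads over libraries of both genotypes and cover counting error only. The 14 reads at E10.5 came as 4 and 7 from the wild-type and 1 and 2 from the homozygous embryos. The 5 CpGs of the Epx stretch were at 86.0% ± 4.77, 67.8% ± 2.93 and 77.8% ± 7.51 (SD, n = 4). Neither these 5 CpGs nor that of Prg3 had 6 reads in every library, so they are not among the promoter values below. The letters GATA, read on either strand, stood in 5 of the 5 stretches found (all but Prg2) against 53.6% of all 32,851 stretches in the table, which is a description of the letters only.

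In E14.5 liver the 4 granule protein genes had their levels in homozygous livers wholly below those in wild-type livers, and the receptor genes did not. Prg2 (ENSMUSG00000027073, mm9 chr2:84820618-84823789, plus strand), the gene of major basic protein, had 636, 857 and 692 counts in wild-type replicates 1 to 3, against 319, 232 and 320 in homozygous replicates 1 to 3. These were 48.5, 56.6 and 48.5 CPM against 24.8, 16.7 and 22.5 CPM. Every homozygous liver was below every wild-type liver, and the homozygous mean was 0.416 times the wild-type mean (51.2 ± 4.67 against 21.3 ± 4.13 CPM, SD, n = 3). The log2 fold change of Prg2 was -1.27 ± 0.12 (SE, edgeR quasi-likelihood fit over 14,183 genes, adjusted p = 0.000431), given as a description because the list was treated as chosen by this contrast.

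Prg3 (ENSMUSG00000027072, chr2:84828353-84834043, plus strand), whose gene lies 4564 bp beyond Prg2, had 51, 48 and 44 counts in wild-type livers and 29, 21 and 28 in homozygous livers, or 3.38 ± 0.442 against 1.91 ± 0.371 CPM. Epx (ENSMUSG00000052234, chr11:87677502-87689038, minus strand), the peroxidase, had 134, 246 and 175 counts against 118, 100 and 116, or 12.92 ± 3.07 against 8.17 ± 0.972 CPM. Ear2 (ENSMUSG00000072596, chr14:44680319-44681199, plus strand), the ribonuclease, had 43, 61 and 52 counts against 36, 16 and 17, or 3.65 ± 0.375 against 1.71 ± 0.936 CPM. For each of these 3 genes the highest homozygous liver was below the lowest wild-type liver, although Epx in homozygous replicate 1 (9.16 CPM) was close to wild-type replicate 1 (10.2 CPM). Their log2 fold changes were -0.82 ± 0.22, -0.67 ± 0.17 and -1.11 ± 0.30, with edgeR adjusted p of 0.0978, 0.0805 and 0.0978. Ear2 belongs to a family of near-identical genes whose 50-base reads can be shared or lost between copies, so its level is uncertain.

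Ccr3 (ENSMUSG00000035448, chr9:123936703-123946421, plus strand), the eotaxin receptor, had 33, 34 and 22 counts in wild-type livers and 28, 26 and 35 in homozygous livers, with overlapping groups at 2.102 ± 0.503 and 2.17 ± 0.291 CPM. Its log2 fold change was 0.05 ± 0.24 (edgeR adjusted p = 0.953). Il5ra (ENSMUSG00000005364, chr6:106660378-106695103, minus strand), the interleukin 5 receptor subunit, had 1, 2 and 4 counts against 4, 4 and 6, which is too few for the filter, and it was not tested. In CPM its homozygous livers (0.289 to 0.421) lay above its wild-type livers (0.0763 to 0.281), but 3 of the 6 livers had the same 4 counts, and a difference cannot be judged at this depth.

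**Figure D1:**
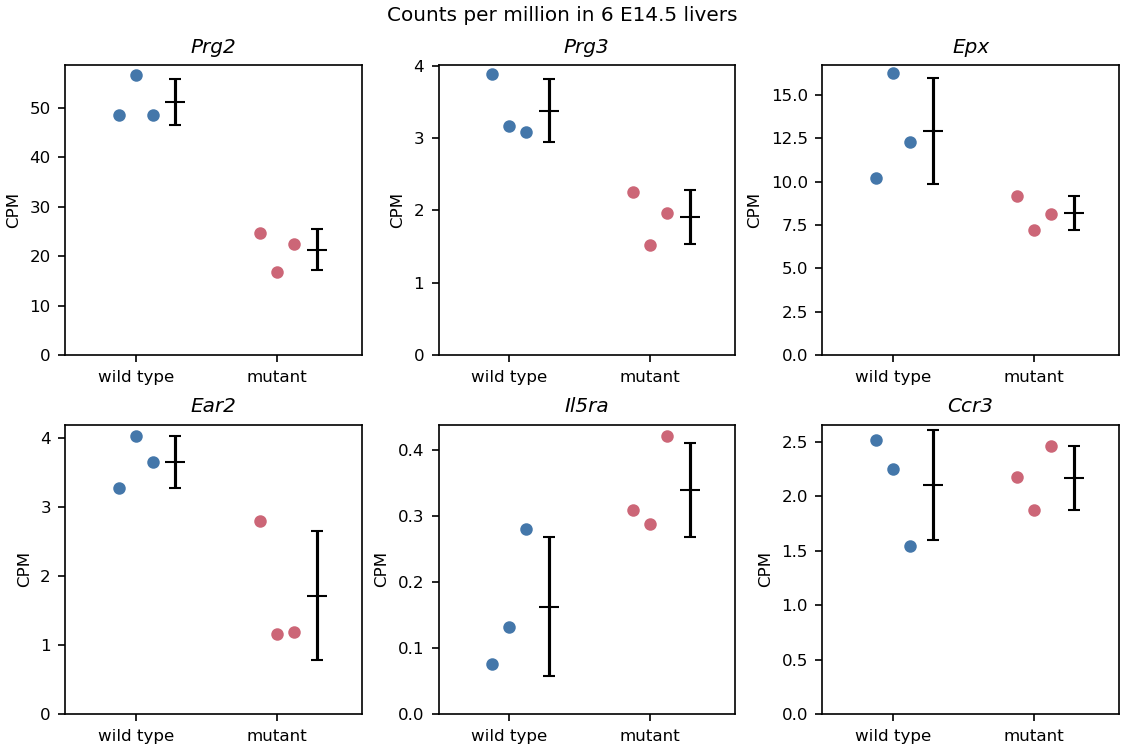
Expression of the 6 genes, in CPM, in each of 3 wild-type (blue) and 3 homozygous (red) E14.5 livers, with the mean and SD in black; each panel has its own axis from 0. The 4 granule protein genes, Prg2, Prg3, Epx and Ear2, have every red point below every blue point, whereas the points of Ccr3 overlap and those of Il5ra rest on 1 to 6 counts.

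In all, 1 of the 5 genes that passed the filter, Prg2, was called at an adjusted p under 0.05, where 1.39% of all genes tested were called in either direction and 0.691% lower in homozygous livers. The groups did not overlap, with homozygous livers below, for 4 of the 5, where 9.84% of all genes tested had that pattern. Both counts describe the contrast by which the list was treated as chosen, and nothing is read from them. With replicate number as a block the edgeR calls were Prg2, Epx (adjusted p = 0.0382) and Ear2 (0.0420), and Prg3 missed the threshold (0.0560). In that fit 460 of 14,183 genes were called in either direction. Pairing by replicate number rests on a check that did not separate it from the sex shared by same-numbered livers. DESeq2 called Prg2 and Epx (adjusted p = 0.0358), where 257 of 14,169 genes were called. Without the filter on low counts edgeR called Prg2, Prg3, Epx and Ear2, where 532 of 21,942 genes were called.

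Between genes, levels can be compared only per length, here as CPM per kb of exons. In wild-type livers Prg2 was at 61.1 ± 5.58 CPM per kb, followed by Ear2 at 5.08 ± 0.522, Epx at 4.72 ± 1.12, Prg3 at 3.49 ± 0.456, Ccr3 at 0.642 ± 0.154 and Il5ra at 0.0495 ± 0.0320 (SD, n = 3). The neighbours Ear2 and Epx lay within 1 SD of each other, while Prg2 stood far above the rest. In homozygous livers the levels were 25.4, 2.38, 2.99, 1.97, 0.663 and 0.103 CPM per kb in the same gene order, so Epx then stood above Ear2, by less than the SD of Ear2 (1.30) but more than that of Epx (0.355).

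The ratios between the granule genes are given as a description of the same contrast, with no test. Prg2 had 4.75, 3.48 and 3.95 counts for each count of Epx in wild-type livers and 2.70, 2.32 and 2.76 in homozygous livers, with no overlap. Prg2 made up 68.7% to 70.8% of the counts of the 6 genes in wild-type livers and 58.1% to 61.3% in homozygous livers. Against Ear2 the ratios overlapped, from 13.3 to 14.8 in wild-type and from 8.86 to 18.8 in homozygous livers. In a whole liver, fewer cells of a type and less RNA in each cell cannot be told apart.

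Genes whose log2 level followed Prg2 most closely over the 6 livers were Agpat3 (Pearson r = 0.997), Mrps7 (0.995), Itpripl1 (0.989), Slc7a6os (0.985) and Ttc38 (0.984), among 13,633 genes with a mean of at least 1 CPM. None of these 5 was called between the genotypes, with log2 fold changes from -0.20 to -0.09, so the likeness is one of shape and not of size. After subtraction of the genotype means, genes among the closest were Golga4 (0.993), Agrn (0.992), A1cf (0.992) and Senp1 (0.991). For the listed genes the values over the 6 livers were 0.947 for Prg3, 0.906 for Epx, 0.905 for Ear2 and -0.0062 for Ccr3. After subtraction of the genotype means they were 0.649, 0.728, 0.714 and 0.427. Counting Prg2 itself as rank 1, Prg3, Epx and Ear2 ranked 100, 255 and 261, and 1856, 1298 and 1387 after the subtraction. Over the 6 livers the neutrophil genes Lcn2 (0.916) and Camp (0.908) lay above Epx and Ear2. Of further eosinophil genes, Ear6 was at 0.927 and Siglec5 at -0.860. With 6 livers in 2 genotypes, all points share the libraries and the genotype difference, and the values are descriptions.

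Further eosinophil genes were read beside these. Of the granule protein list, 5 of the 8 genes in the files were tested, and 4 of those are the genes described above, so the list's median log2 fold change of -0.82 (against -0.0017 over all genes tested) is no further evidence. The remaining gene, the ribonuclease Ear6, was at 6.02 ± 0.756 CPM in wild-type and 3.77 ± 0.918 CPM in homozygous livers (log2 fold change -0.68 ± 0.19, adjusted p = 0.124). Alox15, the lipoxygenase of eosinophils and macrophages, was at 2.03 ± 0.323 against 0.870 ± 0.251 CPM (-1.21 ± 0.29, adjusted p = 0.0634). In the other direction lay Siglec5, the symbol used in this annotation for the eosinophil surface lectin Siglec-F, at 3.55 ± 0.265 against 5.93 ± 0.961 CPM (0.74 ± 0.17, adjusted p = 0.0561). With replicate number as a block both passed the threshold in edgeR, Alox15 lower (adjusted p = 0.0347) and Siglec5 higher (adjusted p = 0.026), and Ear6 did not (0.0682). The limit given above for pairing by replicate number holds here too.

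Receptors and surface proteins had 9 genes tested and 0 called, with a median of 0.09. The common beta chain Csf2rb, which pairs with the interleukin 5 receptor, was at 19.7 ± 2.99 against 21.5 ± 0.778 CPM. The lineage transcription factors had 11 tested and 0 called (median -0.08), and Gata1, a factor of eosinophil development that red cell precursors also use, was at 264 ± 25.4 against 237 ± 4.43 CPM. Cebpe, required for the late steps of granulocyte maturation, was at 6.05 ± 0.971 against 4.18 ± 1.08 CPM (log2 fold change -0.54 ± 0.20, adjusted p = 0.228). Of the 11 factors 6 had a log2 fold change below 0. Gata2 (0.39, edgeR adjusted p = 0.228) and Id2 (0.18, edgeR adjusted p = 0.23) went the other way. Enzymes of lipid mediators had 4 tested and 0 called (median -0.27). Of the ligands, Ccl24 (eotaxin-2) and Il33 were tested and not called (median 0.37), and Il5 itself had 0 or 1 count in every liver. Of the defining genes, Il5ra was thus near the limit of detection, at 1 to 6 counts, Ccr3 was low, and Prg2 was plainly expressed.

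Of 15 neutrophil genes tested, 7 were called lower in homozygous livers, where 0.691% of all genes were (Elane, Ltf, Camp, Ngp, S100a8, S100a9 and Lcn2), with log2 fold changes from -0.93 to -0.67, and the list's median was -0.69. The summed level of the neutrophil list was 968 to 1429 CPM in wild-type and 793 to 918 CPM in homozygous livers. The eosinophil granule list, mostly Prg2 and so a restatement of its values, summed to 71.5 to 87.1 against 29.5 to 43.8 CPM. By CPM, which is not divided by length, the highest neutrophil genes were Mpo (280 ± 48.1 against 306 ± 25.4 CPM, not called) and S100a9 (230 ± 61.2 against 143 ± 16.7 CPM), while per kb S100a8 (460 against 290 CPM per kb) and S100a9 (441 against 274 CPM per kb) were highest. The part of these cells in the values of Prg2, Prg3, Epx and Ear2 was not tested.

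Of the basophil and mast cell list 6 genes were tested and 0 called, with a median of -0.11, and the summed level overlapped between the genotypes (66.8 to 81.9 against 65.7 to 79.1 CPM). Its highest genes by CPM were Kit (52.4 ± 6.37 against 53.4 ± 6.38 CPM) and Hdc (8.13 ± 1.22 against 7.66 ± 0.785 CPM). Of the 6, 5 had a log2 fold change below 0, and the basophil protease Mcpt8, named after its values were seen, was at 1.88 ± 0.614 against 0.813 ± 0.367 CPM (-1.21 ± 0.37, edgeR adjusted p = 0.149). Of the macrophage list 12 were tested and 1 was called, Cd5l, an apoptosis inhibitor of tissue macrophages, at 107 ± 21.4 against 46.9 ± 8.31 CPM (log2 fold change -1.19 ± 0.14, adjusted p = 0.00187), while the list's median was 0.02 and its sum was 1089 to 1165 against 1038 to 1082 CPM. Over all 14,183 genes tested, 98 were called lower and 99 higher in homozygous livers. Other cell types had sums that were higher in homozygous livers. The megakaryocyte list (11 tested, 1 called higher, Pf4, median 0.30) summed to 792 to 871 against 997 to 1116 CPM. The hepatoblast list (12 tested, 1 called higher, Trf, median 0.11) summed to 58,370 to 69,203 against 71,297 to 82,784 CPM, and the endothelial list (7 tested, 0 called, median 0.18) to 270 to 298 against 299 to 352 CPM. The erythroid list (13 tested, 0 called, median -0.15) and the mesenchymal list (8 tested, 0 called, median 0.20) overlapped between the genotypes. The part of these cell types in the values of the granule genes was not tested.

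**Figure D2:**
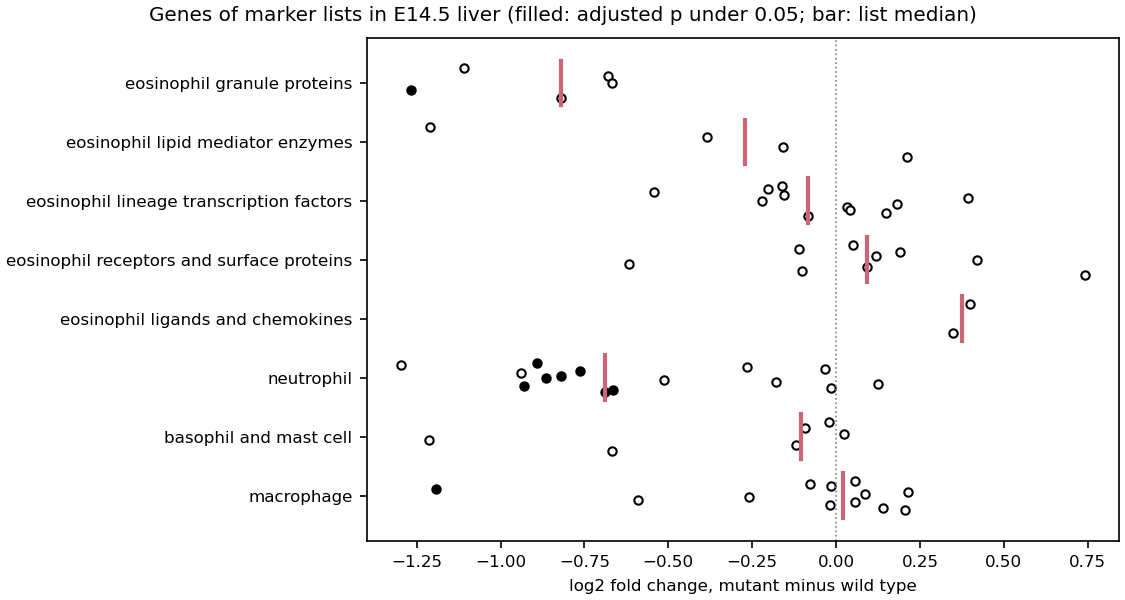
Log2 fold change, homozygous minus wild type, of every tested gene on 8 marker lists in E14.5 liver (filled circles: adjusted p under 0.05; red bar: median of the list). All 5 granule protein genes lie left of 0 and 1 is filled, 7 of 15 neutrophil genes are filled and left of 0, and the receptor list lies on both sides of 0 with none filled.

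Promoter methylation was the percent of reads with a methylated cytosine, summed over CpGs within 1 kb of the annotated start. Only CpGs read at least 6 times in each of the 12 libraries entered. Of the CpGs with any read, 7 of 14 entered at Prg2, 8 of 17 at Prg3 and 12 of 34 at Epx. At Ear2, Il5ra and Ccr3, 10 of 12, 8 of 18 and 4 of 12 entered. So measured, promoter methylation was lower in E14.5 liver than in E10.5 embryo for all 6 genes. At Prg2 (7 CpGs) the 4 E10.5 embryos were at 83.3%, 83.3%, 81.9% and 82.2%, the 4 E14.5 livers at 61.1%, 61.0%, 64.0% and 62.8%, and the 4 E18.5 livers at 69.2%, 65.5%, 69.9% and 59.3%, each time the 2 wild-type before the 2 homozygous libraries. The embryos lay close together, and both liver stages lay wholly below them. The difference between E14.5 and E10.5 was -20.4 points (edgeR test on methylated and unmethylated counts, adjusted p = 6.07e-06).

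At Prg3 (8 CpGs) the E10.5 embryos were at 61.3%, 68.1%, 58.1% and 69.0%, and the E14.5 livers at 49.4%, 44.5%, 53.5% and 53.0%. At Epx (12 CpGs) they were at 76.7%, 75.7%, 77.9% and 80.1%, and at 47.6%, 54.4%, 54.9% and 53.4%. At Ear2 (10 CpGs) they were at 76.2%, 75.6%, 78.3% and 70.9%, and at 48.5%, 58.3%, 57.6% and 57.0%. All 10 of these Ear2 CpGs lay downstream of the start. They had 63.6 to 78.6 reads per CpG in E14.5 livers, against 31.4 to 35.4 per covered CpG of the genome, where no minimum of reads was set. Under the same minimum of 6 reads the other listed genes had 36.75 to 54.4 reads per CpG in E14.5 livers. Whether reads of near-identical family members enter the Ear2 values was not tested. In none of the genes Prg3, Epx and Ear2 did an E14.5 liver reach an E10.5 embryo. The differences were -14.03 points at Prg3 (adjusted p = 0.00066), -25.0 points at Epx (5.07e-07) and -19.9 points at Ear2 (2.3e-05), all from edgeR.

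The receptor genes had the same direction. At Il5ra (8 CpGs) the E10.5 embryos were at 74.5%, 71.0%, 74.7% and 77.2% and the E14.5 livers at 36.3%, 39.6%, 36.8% and 49.5%. At Ccr3 (4 CpGs) they were at 92.3%, 84.8%, 77.2% and 93.3%, and at 64.6%, 65.0%, 71.4% and 68.8%. The difference of -33.8 points at Il5ra (edgeR adjusted p = 8.81e-07) was the largest of the 6 genes, and that at Ccr3 was -19.5 points (0.000467). In wild-type E14.5 liver the lowest mean was that of Il5ra (37.97%) and the highest that of Ccr3 (64.8%), the genes with the lowest RNA levels per kb, and Prg2, with the highest RNA level, stood at 61.1% ± 0.0707 (SD, n = 2).

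**Figure D3:**
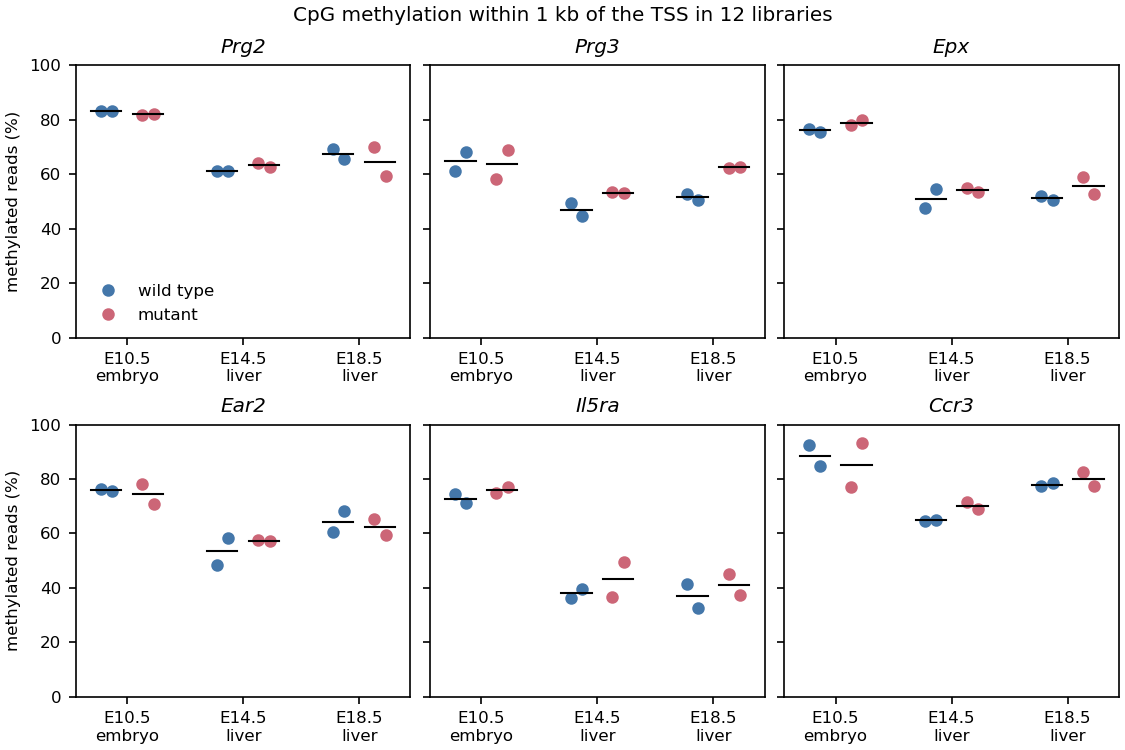
Methylated reads, in percent, over CpGs within 1 kb of the start of each gene in 12 bisulphite libraries, by stage, with wild-type (blue) and homozygous (red) libraries and a black line at the mean of each pair. For all 6 genes the E14.5 livers sit below the E10.5 embryos, with differences from -14.03 points at Prg3 to -33.8 points at Il5ra, while blue and red overlap or lie near each other in most panels and are farthest apart, by 10.9 points, at Prg3 in E18.5 liver.

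A fall between E10.5 embryo and E14.5 liver was common: 6 of the 6 promoters were called lower, where 46.4% of all promoters were, and in 6 of the 6 all 4 livers lay below all 4 embryos, where 42.5% of all promoters did. The median over all promoters was -0.683 points, and the lower of the 6 genes, Il5ra and Epx, were below all but 2.39% and 9.47% of promoters. These shares, the median and the ranks take in promoters of any level in the embryos, also those with little methylation to lose. The 6 genes started at means from 64.1% (Prg3) to 86.9% (Ccr3), and promoters of like level were not picked out, so no excess is read from them. Over the autosomes the embryos lay between 70.6% and 73.9%, the E14.5 livers between 56.4% and 60.3% and the E18.5 livers between 61.4% and 65.5%, so the whole genome moved with the 6 genes, and its part in their values was not tested.

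Between E14.5 and E18.5 liver, 0 of the 6 promoters were called, where 16.2% of all promoters were called in either direction. The differences were 11.5 points at Ccr3 (adjusted p = 0.0665), 7.95 at Ear2 (adjusted p = 0.0735), 6.98 at Prg3 (adjusted p = 0.106), 3.73 at Prg2, 1.02 at Epx and -1.47 at Il5ra (edgeR), and 3 of the 6 had an unadjusted p under 0.05, as did 7579 of the 20,677 promoters. At Ccr3 the 4 E18.5 livers (77.3%, 78.3%, 82.6% and 77.4%) were all above the 4 E14.5 livers, and at Il5ra the 2 stages overlapped (41.4%, 32.5%, 45.2% and 37.2% at E18.5). When promoters of the sex chromosomes were left out, a setting chosen after the data had been seen, Ccr3 and Ear2 were called (edgeR adjusted p = 0.0289 and 0.0254), but so were 5051 of 19,937 promoters in that fit.

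The GENCODE annotation used here and RefSeq place the start of Il5ra differently, the RefSeq start lying at -3928 bp (upstream), and the window was moved there after the data had been seen. Within 1 kb of the RefSeq start (8 CpGs) the E10.5 embryos were at 73.8%, 79.9%, 85.5% and 79.4%, the E14.5 livers at 16.5%, 18.3%, 17.8% and 21.3%, and the E18.5 livers at 33.5%, 36.9%, 37.3% and 30.3%. The 3 stages did not overlap. The difference between E14.5 and E10.5 was -61.2 points (edgeR adjusted p = 1.85e-08), where 43.8% of promoters at RefSeq starts were called lower. Between E14.5 and E18.5 the difference was 16.0 points (adjusted p = 0.00956), opposite in sign to that at the other start, where 13% of promoters at RefSeq starts were called in either direction.

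Single CpGs near the starts fell nearly everywhere. The share of all CpGs of the genome that fell was not counted, and methylation over the autosomes fell as well. Of CpGs within 5 kb of the start that were read at least 6 times in each of the 12 libraries, the mean of the E14.5 livers was below that of the E10.5 embryos at 41 of 41 for Prg2, 50 of 50 for Prg3, 99 of 102 for Epx, 22 of 26 for Ear2, 40 of 40 for Il5ra and 15 of 16 for Ccr3. Prg2 and Prg3 lie so close together that part of their CpGs are the same. At Ear2, 3 of the 26 CpGs were under 5% in all 12 libraries.

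At Il5ra the CpG with the largest fall was at -3837 bp from the annotated start, close to the RefSeq start and on its downstream side, though outside the GENCODE gene models (mm9 chr6:106698940), with 84.1% in E10.5 embryos, 6.59% in E14.5 livers and 18.1% in E18.5 livers. The largest fall near both Prg2 and Prg3 was at 1 CpG in the last exon of Prg2, in its UTR (mm9 chr2:84823774), at 3156 bp from the start of Prg2 and -4579 bp from that of Prg3, with 82.9%, 18.46% and 23.3%. At Epx it was at -1291 bp (84.1%, 37.0% and 44.8%), at Ear2 at 3971 bp (83.6%, 48.1% and 54.0%) and at Ccr3 at -2210 bp (73.1%, 40.8% and 63.2%). These CpGs were picked for their fall, so the values are descriptions.

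At Prg3 the 1 kb window held 2 kinds of CpG. The 5 upstream of the start averaged 85.9% in E10.5 embryos, 73.7% in E14.5 livers and 81.1% in E18.5 livers. The 3 downstream of it averaged 33.4%, 11.6% and 12.7%, so these CpGs were already less methylated in the embryos and were lowest in the livers.

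**Figure D4:**
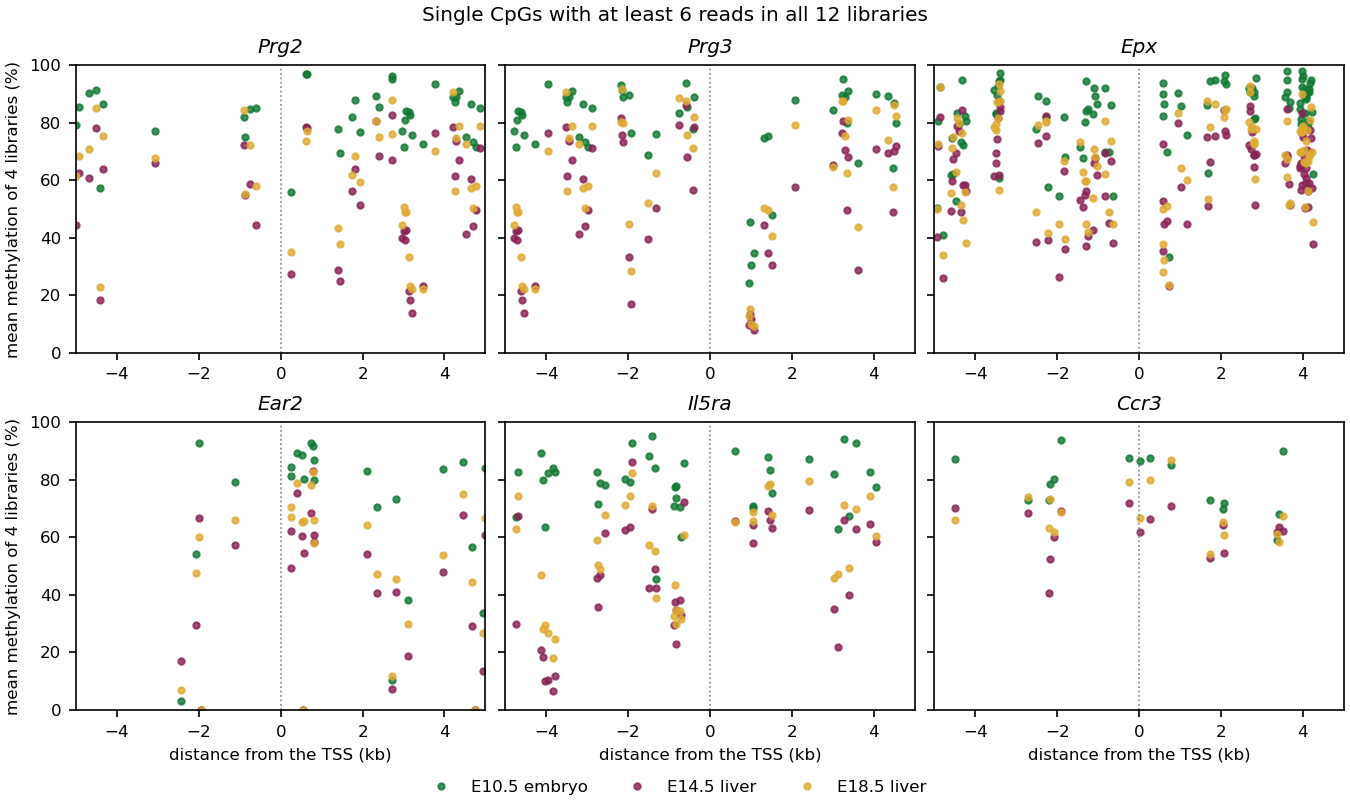
Methylation, in percent, of single CpGs, each read at least 6 times in every library, against distance from the annotated start in kb (negative values upstream), as the mean of the 4 libraries of E10.5 embryo (green), E14.5 liver (purple) and E18.5 liver (yellow). Purple points are below green points nearly everywhere, with groups of low purple points about 4 kb upstream of Il5ra, near 3 kb at Prg2 and about 1 kb downstream of Prg3, and single CpGs at Ear2 are near 0 at all 3 stages.

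Methylation of the 6 promoters did not differ detectably between the genotypes. In E14.5 liver, the tissue of the RNA-seq, homozygous minus wild-type differences were 6.32 points at Prg3, 5.34 at Ccr3, 5.18 at Il5ra, 3.90 at Ear2, 3.09 at Epx and 2.32 at Prg2. All 6 were above 0, with a median of 4.54 points against 0.425 points over all promoters, and 0 of the 6 were called by edgeR (adjusted p from 0.717 to 0.917, 0 at an unadjusted p under 0.05), where 0.145% of all promoters were. Promoters of any level enter that median, and over all 1 kb tiles of E14.5 liver the median difference was 1.87 points. The sign depended on 1 library for 3 of them, since without wild-type replicate 1 the difference was -0.29 points at Epx and -1.03 at Ear2, and without homozygous replicate 2 it was -1.17 at Il5ra. With 2 libraries against 2, no exact permutation test of a single promoter can go below p = 0.333. Over the autosomes the homozygous E14.5 livers were at 59.8% ± 0.738 and the wild-type livers at 57.4% ± 1.502 (SD, n = 2), a difference in the same direction whose part in these values was not tested.

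In E10.5 embryos 0 of the 6 were called (0.609% of all promoters, 0 of the 6 at an unadjusted p under 0.05), with differences from -3.31 points at Ccr3 to 3.15 points at Il5ra. The sign at Ccr3 rested on single embryos, being 4.76 points without homozygous replicate 1 and 0.41 without wild-type replicate 1, and the signs at Prg3 and Ear2 also turned when 1 embryo was left out (Prg3 at 2.24 points without wild-type replicate 2 and 4.31 without homozygous replicate 1, Ear2 at 2.37 without homozygous replicate 2). In E18.5 livers 0 of the 6 were called (0.198% of all promoters), and Prg3 was the 1 member with an unadjusted p under 0.05, as 1863 of the 20,677 promoters had. Its wild-type livers were at 52.9% and 50.3% and its homozygous livers at 62.4% and 62.7%, a difference of 10.9 points (edgeR adjusted p = 0.48). Of the 6 differences at E18.5, 4 were above 0, and those at Prg2 (-2.77 points) and Ear2 (-2.07 points) were below it. Over the mean of the 3 stages 0 of the 6 were called (4.51% of all promoters), and Prg3 was again the 1 with an unadjusted p under 0.05, at 5.37 points (edgeR adjusted p = 0.247), as 3966 of the 20,677 promoters had. The interaction of genotype and stage was called for 0 of the 6, all with an adjusted p of 1 and none at an unadjusted p under 0.05, where 0% of all promoters were called and 762 had an unadjusted p under 0.05.

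The search was widened to 1 kb tiles with at least 8 CpGs within 50 kb of the genes in E14.5 liver. Of 182 tiles, 0 passed both limits, an edgeR adjusted p under 0.05 with more than 15 points between the genotypes, where 0.122% of 909,678 tiles of the genome did. At an unadjusted p under 0.05 there were 19 of the 182, all higher in homozygous livers, where 8.99% of all tiles had such a p and 73.9% of all tiles were higher in homozygous livers. The share higher among all tiles with such a p was not counted, but of the 1114 tiles that passed both limits 1083 were higher. The tile with the largest difference lay on the Ccr2 side of Ccr3 (mm9 chr9:123996001-123997000), at 37.9% and 42.0% in wild-type and 51.5% and 56.7% in homozygous livers, a difference of 14.1 points (edgeR adjusted p = 0.0595). The tile with the lowest adjusted p was at the start of Mks1, the gene next to Epx (mm9 chr11:87666001-87667000), at 5.65% and 4.76% in wild-type and 6.91% and 11.1% in homozygous livers (3.78 points, adjusted p = 0.055). Near Prg2 and Prg3, which share most of their tiles, the lowest adjusted p was 0.127. Near Ear2 only 1 tile had enough CpGs (7.44 points, adjusted p = 0.174), and near Il5ra the lowest adjusted p of 35 tiles was 0.392. Calls among the 182 tiles arose without wild-type replicate 2 of E14.5 liver, but that fit leaves 1 wild-type library, so they are not counted.

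The depth limits these statements. The RNA-seq libraries held 12,928,313 to 14,621,004 counts. Reads per covered CpG numbered from 16.8 up to 18.97 (E10.5), from 31.4 up to 35.4 (E14.5) and from 17.7 up to 18.4 (E18.5), with 0.0412% to 0.0775% of cytosines in the lambda control left unconverted. A member promoter had 57 to 786 reads in a library, and its 95% Wilson interval reached 3.49 to 10.7 points to either side (median 5.44 points), which covers counting error only. Ear2 had up to 78.6 reads per CpG, more than any other member.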

How the data were processed

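Per the study's methods, the authors aligned bisulphite reads with Bismark and Bowtie2 to mm9 in which known FVB substitutions had been put in. RNA-seq reads of 50 bases were aligned to mm9 with TopHat, and raw read counts per gene from HTSeq, counted without strand, were deposited. The deposited methylation files give a percent methylated and the methylated and unmethylated read counts at each cytosine. The methods give versions for Bismark and Bowtie2, and those of TopHat and HTSeq were not given in the sources used here.

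The 6 genes and all marker lists were chosen with earlier results of these data known. Genes of the lists could be named if they passed the filter. Of other cell types, called genes and the 2 most abundant were named. The 5 genes most correlated with Prg2, by log2(CPM + 0.5), and the nearest neighbours completed the rule. Not every gene that the rule names is reported here.

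RNA counts were filtered (edgeR filterByExpr, minimum count 10, minimum total 15), scaled by TMM and tested with edgeR's quasi-likelihood test and Benjamini-Hochberg adjustment. CPM are counts relative to the TMM-scaled library size, as edgeR's cpm function gives them. Same-numbered livers of the 2 genotypes deviated together (r = 0.140, 0.221 and 0.415 over 14,183 genes). The highest r with a differently numbered liver was 0.0839 for replicates 1 and 2 and -0.142 for replicate 3. Replicate 3 was the female of each genotype and genes of the sex chromosomes were kept. Deviations of the 3 livers of a genotype sum to 0, so the sex difference enters the values of all 3 replicates. Shared sex was thus not separated from pairing in this check. The numbers were taken to pair the samples from this check and not from a label, and only in the fit with a replicate block.

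Promoter values summed CpGs within 1 kb of the GENCODE vM1 start that were read at least 6 times in each of the 12 libraries. Promoters with at least 3 such CpGs were tested. Tiles of 1 kb had at least 8 CpGs, each read at least 6 times in each of the 4 E14.5 livers. For the promoter stretches, CpGs with at least 1 read in every library were taken. Methylated and unmethylated counts were tested with edgeR, with genotype within stage as the model. Windows at RefSeq starts, placed on mm9 by exact sequence match, and fits of autosomes only were added after the data had been seen. Other alternatives were DESeq2, other filters, windows and scaling, sex, replicate blocks and leaving out each library. Both fits were tested on simulated data. No 2 libraries agreed within sampling noise (lowest chi-square per degree of freedom 4.32 for RNA-seq and 2.33 for replicate bisulphite libraries). The study calls the E14.5 bisulphite livers littermates and the RNA-seq livers independent biological replicates. For the other stages, pooling of animals is not described in the sources used here, and p-values there measure only the spread between these samples. R 4.3.3, edgeR 4.0.16, DESeq2 1.42.0, Python 3.11.15, numpy 2.4.6, pandas 2.3.3, scipy 1.17.1 and matplotlib 3.10.9 were used.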

Additional observations from a re-analysis of the deposited data

How the results depend on the processing

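Prg2 was called under every alternative run, with log2 fold changes from -1.38 to -1.12 when 1 library was left out. The number of the 5 genes called by genotype, 1 in the main fit, was 2 with DESeq2, 4 without the filter, 3 with the replicate block and 1 to 2 when 1 library was left out (2 without wild-type replicate 1, which added Epx, or homozygous replicate 1, which added Ear2). Over all genes the calls, 197 in the main fit, were 257 with DESeq2, 532 without the filter, 460 with the replicate block and 66 to 224 when 1 library was left out. For E14.5 liver against E10.5 embryo, 2 promoters were called within 500 bp, where only Ear2 and Ccr3 had enough CpGs. In that fit 6788 of 19,602 promoters were called lower in liver. For E18.5 against E14.5 liver, 0 in the main fit became 1 with CpGs of at least 1 read (Ccr3, where 5164 of 21,496 promoters were called). Within 2.5 kb there were 4 (Prg2, Prg3, Ear2 and Ccr3, where 7547 of 21,546 promoters were called). At RefSeq starts there was 1 (Il5ra, where 1784 of 13,704 promoters were called). On autosomes only there were 2 (Ear2 and Ccr3, where 5051 of 19,937 promoters were called). Ccr3 or Ear2 was also called in some fits without 1 library, but such a fit leaves 1 library in a group, so those calls are not counted. Il5ra reversed at its RefSeq start, at 16.0 points against -1.47, since the window covers other CpGs. The cause of the other changes was not tested. For tiles, each fit without 1 library leaves 1 library in a genotype, so its calls are not counted. Calls near the genes arose only without E14.5 wild-type replicate 2. Bisulphite libraries with the same number did not deviate together (r = 0.0661, -0.0339 and -0.0236 over 19,937 autosomal promoters). With the replicate block the stage contrast compared fitted levels of replicate 1, so it is not the contrast of the main fit. In that contrast 5 of the 6 promoters were called between E10.5 and E14.5, the exception being Prg3 (edgeR adjusted p = 0.12). There 8698 of 20,677 promoters were called with a mean over all libraries lower in liver. No genotype difference at the 6 promoters was called under any alternative run. Over all promoters in E14.5 liver, 30 of 20,677 were called by genotype in the main fit. Within 500 bp 4 of 19,602 were called, and on autosomes only 247 of 19,937. With sex as a covariate 200 of 20,677 were called, and with the replicate block 363 of 20,677. The 1 to 6 counts of Il5ra and the 2 libraries per genotype and stage limit what could be detected.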
